A study of Glycine max with 47 samples.

Results

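The 150 genes described here, of 55983 in the table, were those whose mRNA stood highest in roots of the nematode-resistant cultivar MN1806CN that carried both pests at 30 days post infestation (dpi). They were chosen by their levels, given in CPM (a gene's count scaled to its library's total) and used as log2(CPM + 1). Each gene was scored by its lowest of the 3 MN1806CN SCN:SBA libraries at 30 dpi minus its highest of the other 8 MN1806CN libraries of 30 dpi. Genes whose median in the PI518671 control at 5 dpi exceeded that of the other PI518671 libraries of 5 dpi by 1 or more were set aside, and the 150 highest scores were kept. The score and that condition chose the genes, so the levels in the MN1806CN libraries of 30 dpi and the place of the control among the PI518671 libraries of 5 dpi are a description and carry no test.

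Soybean cyst nematode (SCN, Heterodera glycines) hatches in soil, enters the root and feeds from a syncytium, a large cell made by fusion of root cells. In resistant soybean the syncytium breaks down and few females mature. Soybean aphid (SBA, Aphis glycines) draws phloem sap from leaves and stems, so that an aphid effect in roots has to travel through the plant. Soybean carries many near-identical gene copies from ancient genome duplications.

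RNA of whole Glycine max roots was sequenced in 47 libraries, 3 for each of 16 groups of cultivar, treatment and time point, except the MN1806CN control at 30 dpi with 2. PI518671 is Williams 82, susceptible to the HG Type 0 SCN used, MN1806CN is resistant to it, and both are susceptible to the biotype 1 aphids used. The control roots had neither pest. SCN roots received 2000 eggs at planting, SBA plants received 15 aphids at the second trifoliate stage, and SCN:SBA plants received both. Days were counted from aphid infestation, so SCN had been present for longer. Roots of 5 dpi came from Water bath I and those of 30 dpi from Water bath II, so time and water bath cannot be told apart. In whole-root RNA, fewer cells of a type and less RNA per cell cannot be told apart either. The table's gene IDs matched 0 IDs of the reference annotation used here, so no gene name or role is given, only 4 IDs are printed, and other genes are called by their rank on the score.

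Total estimated counts were 8472717 to 47902174 per library (median 18350922), and all 150 genes were among the 43122 that reached 0.5 CPM in at least 1 library. The SCN:SBA libraries of MN1806CN at 30 dpi, on which the choice rests, stood apart from the other libraries of their cultivar and time. This was measured with the 112 genes outside the set that were higher in every PI518671 library of 5 dpi than in any of 30 dpi, and the 86 that were lower. The mean log2(CPM + 1) of the first minus that of the second was 0.89 to 1.59 in these 3 libraries and -1.58 to -0.43 in the other 8 MN1806CN libraries of 30 dpi. Among those 8, the SCN libraries lay nearest to the 3, at -0.98 to -0.43, and the SBA and control libraries lay at -1.58 to -1.31. The difference was 0.77 to 2.50 in the 12 MN1806CN libraries labelled 5 dpi, a range that holds all 3. Over all tested genes, which share a library's depth and composition, the mean Pearson correlation of the 3 with the MN1806CN libraries of 5 dpi was 0.901 to 0.915, and with the other 8 of 30 dpi it was 0.904 to 0.930. Those 8 correlated with one another at 0.958 to 0.966 and the MN1806CN libraries of 5 dpi with one another at 0.933 to 0.958, so the 3 lay below both. The 3 are therefore called the libraries labelled MN1806CN SCN:SBA 30 dpi. The PI518671 SCN libraries of 5 dpi also stood apart, at -0.35 to 0.24 on the same difference against 0.87 to 3.50 in the other PI518671 libraries of 5 dpi. They took part in choosing those genes. Replicates 2 and 3 of the PI518671 control at 5 dpi stood apart in another way. Their mean log2(CPM + 1) over all tested genes was 2.35 and 2.41, the lowest of the 47 libraries, against 2.93 in replicate 1.

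The score ran from 2.48 down to 0.72 (median 0.86). The last genes inside the limit scored 0.722 and 0.721, and the first outside scored 0.719 and 0.718. A score above 0 was found for 5479 genes, of which 4515 met the condition on PI518671, and 12.5% of tested genes lay without overlap above the other 8 libraries. The condition carried much of the choice, because 255 of the 405 genes at or above the limit score were set aside by it. Without it, only 16 of the 150 would have been taken. Among the 150, the PI518671 control at 5 dpi still exceeded the other libraries of 5 dpi in 111. The difference over all 150 had a median of 0.31 and ran from -2.25 to 0.96.

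In the libraries labelled MN1806CN SCN:SBA 30 dpi, the 150 genes together made up 3108, 3795 and 3328 CPM, against 980 to 1264 CPM in the other 8 libraries of MN1806CN at 30 dpi. Their mean levels in the group ran from 1.88 to 174 CPM (median 12.1), so the set held genes of low and of high level. The lowest SCN:SBA library was 1.66 to 17.4 times the highest other library in CPM (median 2.01). The smallest value behind any of them was 14.5 estimated counts. Replicate 2 was the highest library in 79 genes, replicate 3 in 51 and replicate 1 in 20. The replicates lay close together, at a median of 1.35 between the highest and the lowest, and were more than 2-fold apart in 16 genes.

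**Figure D1:**
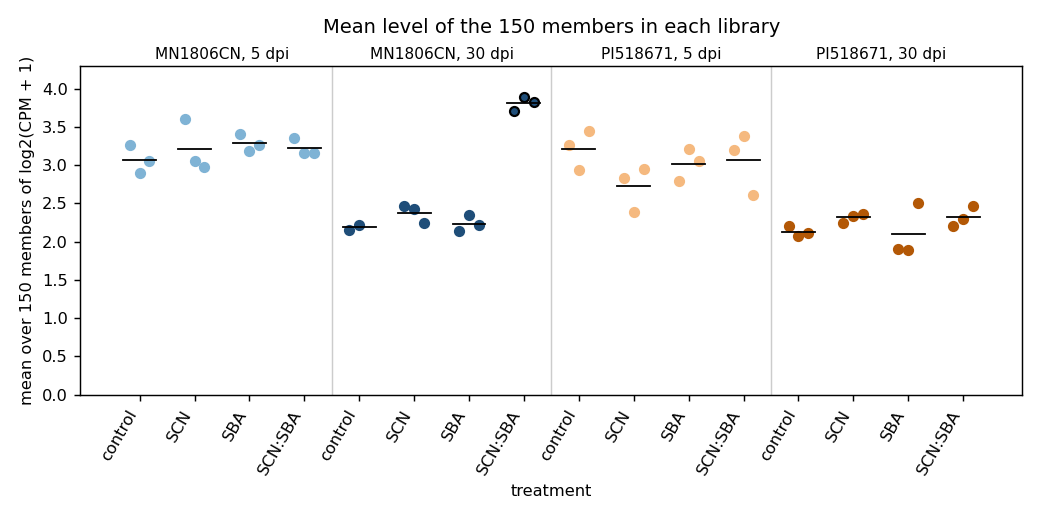
Mean of log2(CPM + 1) over the 150 genes in each of the 47 libraries (points), by treatment along the horizontal axis and by cultivar and time point across the panels. Lines are group means and black-edged points are the 3 libraries whose levels chose the genes. Those 3 lie at 3.71 to 3.89 and the other 8 MN1806CN libraries of 30 dpi at 2.13 to 2.47, with the MN1806CN libraries of 5 dpi between them at 2.89 to 3.60.

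The highest score belonged to Glyma.13g327700, a gene of low level everywhere else. It was at 6.74, 7.54 and 11.3 CPM in the libraries labelled MN1806CN SCN:SBA 30 dpi. The other 8 libraries of that cultivar and time lay between 0.0450 and 0.386 CPM, the last a control. No other library of the series exceeded 1.75 CPM, a value reached in a PI518671 control at 5 dpi. The gene of rank 2 was at 76.9, 72.8 and 88.7 CPM in the 3 libraries, and at most 12.6 CPM in the other 8, where the SCN libraries (6.75 to 12.6 CPM) lay above the SBA libraries (1.67 to 3.58 CPM) and the controls (1.29 and 1.82 CPM). Ranks 4 and 5 had 17.5, 31.1 and 15.2 CPM and 17.8, 19.7 and 30.1 CPM, against at most 3.34 and 4.86 CPM in the other 8. These 4 genes were among 19 whose 3 libraries exceeded all 44 others, which held for 0.397% of tested genes, and the score had required part of it.

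The genes of highest level had smaller ratios. Rank 110, the most abundant, was at 149, 218 and 155 CPM in the libraries labelled MN1806CN SCN:SBA 30 dpi and at 36.0 to 86.1 CPM in the other 8. Rank 53 was at 155, 171 and 117 CPM against 27.2 to 61.8 CPM. At 5 dpi the MN1806CN libraries had medians of 151 CPM for rank 110 and 141 CPM for rank 53, inside the span of the 3 libraries in both cases.

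With a single pest at 30 dpi, MN1806CN roots showed little of this difference. The SCN median exceeded the control median in 115 of the 150 genes, and the difference over all 150 had a median of 0.16 in log2(CPM + 1). The SBA median exceeded it in 93 genes, with a median difference of 0.07 over all 150, and SCN lay above SBA in 110. With both pests the median difference from control was 1.47. The highest of the 8 other libraries was an SCN library in 93 genes, an SBA library in 45 and a control in 12, with 3, 3 and 2 libraries of each. These contrasts entered the score and were not tested.

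The members were also high in roots of 5 dpi. In MN1806CN at 5 dpi the 150 genes summed to 2067 to 3793 CPM over the 12 libraries, above all 8 of the single-pest and control libraries of 30 dpi. The control median at 5 dpi exceeded that at 30 dpi in 136 of the genes, and the median difference over all 150 was 0.85 in log2(CPM + 1). For SCN the median difference was 0.64 (135 genes higher at 5 dpi) and for SBA 1.00 (143 genes). With both pests the order was turned: only 20 genes were higher at 5 dpi, and the median difference was -0.53. The score took genes high in SCN:SBA and low in the other groups at 30 dpi, which favours this turn. Taking genes low in control, SCN and SBA roots at 30 dpi also favours higher levels at 5 dpi in those treatments. These counts are therefore a description, and no share over all genes stands beside them. The libraries labelled MN1806CN SCN:SBA 30 dpi had medians above each MN1806CN group of 5 dpi in 123 to 130 genes. Their lowest library lay above every MN1806CN library of 5 dpi in 48 genes (32%) and within or below their range in the other 102. The same held for 4.66% of all tested genes, and for 13.4% of the 4415 tested genes that met the condition and lay above the other 8 libraries of 30 dpi, which the score favours.

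**Figure D2:**
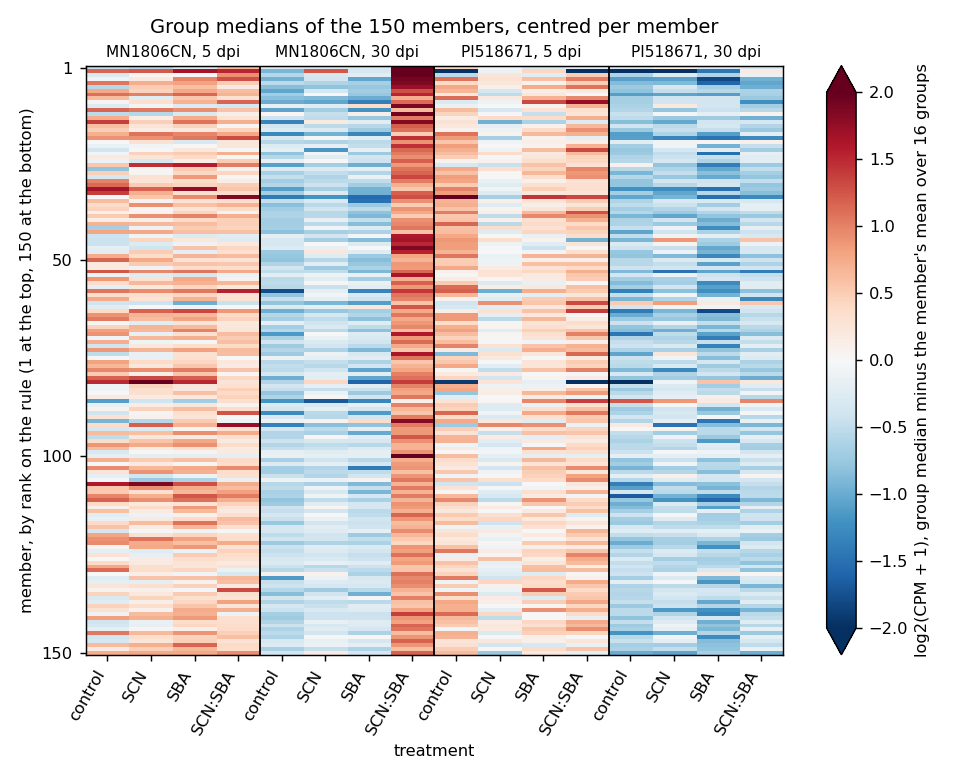
Median log2(CPM + 1) of each of the 150 genes (rows, rank 1 at the top) in the 16 groups (columns), minus the gene's own mean over the groups. Red is above and blue below that mean, with colours held at 2 and -2. The column MN1806CN SCN:SBA 30 dpi is red throughout, most 5 dpi columns are pale red, and the other 30 dpi columns are mostly blue.

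PI518671 roots offered a comparison of time points outside the MN1806CN libraries. Its 5 dpi libraries had entered the condition, so the calls are given as a description, read against the 41142 tested genes that met the same condition, and are no independent test. The comparison was added after the levels had been seen. Over the 4 treatments together, 123 of the 150 genes (82%) were higher at 5 than at 30 dpi and 0 were lower (edgeR quasi-likelihood F test, 12 against 12 libraries, Benjamini-Hochberg adjusted p under 0.05 over 43122 genes). Of all tested genes 14% were higher and 14.9% lower, and of those that met the condition 12.3% and 15.5%. The log2 fold change had a median of 0.98 over the 150 genes, was positive in 146 and exceeded 1 in 72. Over all genes the median was 0.01 and 51% were positive. DESeq2 called 126 higher and 0 lower (13.6% and 17.5% of genes that met the condition), and at an unadjusted p under 0.05 the edgeR test gave 133 higher and 0 lower (19.9% and 19.3% of all genes). Without the SCN libraries, which stood apart at 5 dpi, 117 were higher and 0 lower (9.92% and 14.2% of genes that met the condition).

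Taken by treatment, the count of genes called and the median fold change of the 150 were largest in control roots, where the share called over all genes was also largest. In control roots alone 127 genes were higher at 5 dpi and 0 lower (17% and 18.1% of all genes, 13.5% and 19% of those that met the condition), with a median log2 fold change of 1.90. The control libraries of 5 dpi are the ones the condition was built on, and replicates 2 and 3 had the lowest means over all tested genes. In SBA roots 32 were higher and 1 lower (2.92% and 8.55% over all genes, median 0.74), and in SCN:SBA roots 29 were higher and 0 lower (1.27% and 2.48%, median 0.78). In SCN roots edgeR called 0 higher and 0 lower (0.0255% and 0.051% over all genes), with a median of 0.47. At an unadjusted p under 0.05, 31 were higher and 0 lower (3.88% and 3.83% over all genes), and DESeq2 called 6 higher and 0 lower (0.346% and 0.288%). Differences between treatments were not themselves tested. Without the control libraries 68 of the 150 were higher and 0 lower, against 6.58% and 9.69% of the genes that met the condition. Scaling moved the size: with library totals in place of TMM (trimmed mean of M-values) factors, the median of all genes in control roots was -0.41 rather than -0.09, and that of the 150 genes 1.52.

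The share of genes higher at 5 dpi in PI518671 followed the score through the tested genes that met the condition. It was 8.35% of 36543 genes with a score below 0, 35.7% of 3038 genes between 0 and 0.25, 53.2% of 1113 between 0.25 and 0.5, and 66.1% of 298 between 0.5 and the limit. It reached 82% in the 150. The share lower at 5 dpi was 17.4% of the genes with a score below 0, more than the share higher. It was 0.691%, 0.539%, 0% and 0% in the tiers above, in the same order. All these shares come from the fit that holds the control libraries of 5 dpi, on which the condition was built. Without the control libraries the share higher in the 150 was 45.3%, and the shares by score were not computed. The trend is therefore a description.

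Overlap was nevertheless common in single genes. In 6 of the 150 (4%) every PI518671 library of 5 dpi lay above every one of 30 dpi, against 0.274% of tested genes, and in 0 was the order reversed (0.199%). Leaving out replicate 2 of the PI518671 SCN libraries at 5 dpi raised the count to 22, leaving out replicate 1 raised it to 10, and CPM on TMM-scaled totals gave 3.

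Of the 150 genes, 27 were not called higher at 5 dpi in PI518671. Their log2 fold changes ran from -0.87 to 1.09, negative in 4, and their scores were like those of the others (median 0.86 against 0.85). Their median level over members in MN1806CN controls was 2.62 CPM at 5 dpi and 2.14 CPM at 30 dpi, and 8.07 CPM in the libraries labelled MN1806CN SCN:SBA 30 dpi. The 123 called genes stood at 7.63, 3.20 and 12.2 CPM in the same groups. In 19 of the 27 and 29 of the 123 the lowest of the 3 libraries lay above every MN1806CN library of 5 dpi. This held for 4.66% of all tested genes, and for 13.4% of those that met the condition and lay above the other 8 libraries. The 27 had a lower median level over all 47 libraries (4.82 against 5.99 CPM) and a larger median SE (0.258 against 0.205). Low levels at 5 dpi favour both traits, so the contrast is a description.

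**Figure D3:**
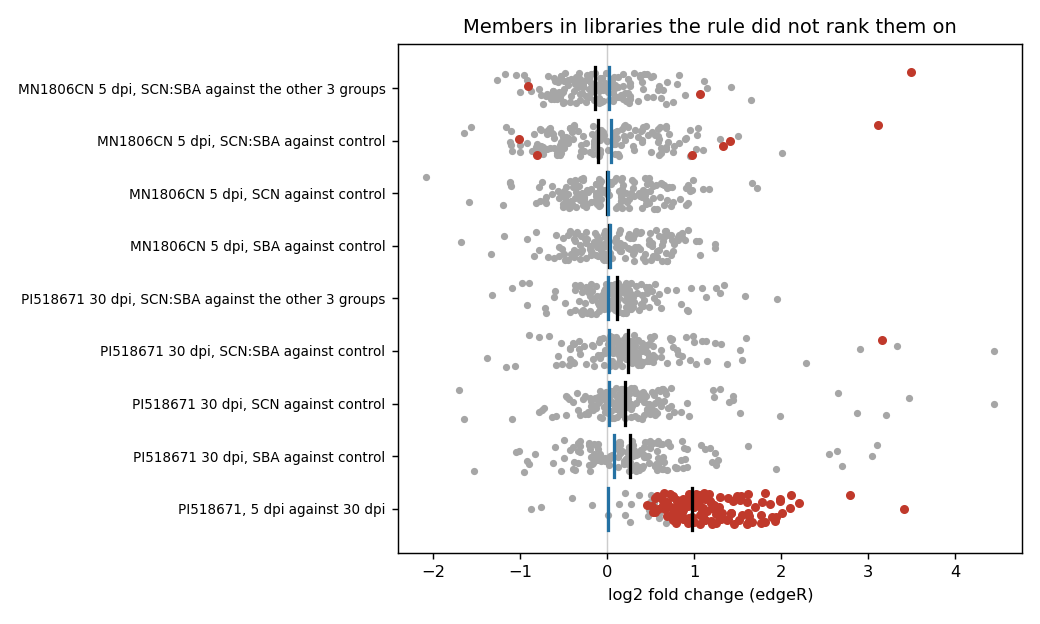
Log2 fold changes from edgeR (horizontal axis) of the 150 genes in 9 comparisons, 1 point per gene. Red points passed an adjusted p under 0.05, black bars are medians of the 150 genes and blue bars medians of all tested genes. In PI518671, 5 against 30 dpi, 123 points are red and the black bar lies at 0.98; in the 8 treatment comparisons at most 6 points are red.

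The question of whether both pests together also raised these genes elsewhere was put to MN1806CN at 5 dpi and PI518671 at 30 dpi, in 8 comparisons within 2 sets of 12 libraries. In MN1806CN at 5 dpi, SCN:SBA roots against the mean of the other 3 groups gave 2 genes higher and 1 lower by edgeR, a background of 0.826% higher and 0.327% lower over all genes. The median log2 fold change of the 150 was -0.14, against 0.03 over all genes. It was positive in 57 of the 150 and in 52% of all genes. Against control alone, 4 were higher and 2 lower (3.29% and 4.15% over all genes) and the median was -0.10. These comparisons share the SCN:SBA libraries. With library totals in place of TMM factors the counts were 5 higher and 0 lower, and 7 higher and 0 lower (1.91% and 0.285%, and 7.28% and 1.88% over all genes), while the median of all genes in the comparison with control moved from 0.04 to 0.30 and that of the 150 from -0.10 to 0.16.

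The counts in MN1806CN at 5 dpi were small and moved with the libraries used. Against the other 3 groups they were 0 to 7 higher and 0 to 5 lower when 1 library was left out, the most without replicate 2 of the control (7 and 5) or of SBA (6 and 4). Each of the other 10 omissions left at most 1 higher and 0 lower. Against control they were 0 to 6 higher and 0 to 13 lower, with 13 lower without replicate 2 of the control and 0 in both directions without replicate 2 of SCN:SBA or replicate 3 of the control. By DESeq2 they were 5 higher and 6 lower (3.78% and 4.91% over all genes), and 9 higher and 11 lower (7.74% and 9.58%). The study took its replicates from separate blocks, and whether the replicate numbers name the blocks is not given in the sources used here. With the number as a block edgeR gave 5 higher and 6 lower (3.69% and 4.16% over all genes), and 4 higher and 12 lower (6.28% and 7.54%).

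A single pest in MN1806CN at 5 dpi gave almost no edgeR calls, among the 150 as over all tested genes. By DESeq2 the shares called in the 150 were at most 2% in either direction, each below the share over all genes. For SCN against control edgeR called 0 higher and 0 lower (0.00464% and 0% over all genes), with 8 and 10 at an unadjusted p under 0.05 (9.07% and 8.19%), and DESeq2 called 1 higher and 3 lower (2.55% and 2.91%). For SBA against control edgeR called 0 and 0 (0% and 0%), with 13 and 4 unadjusted (10.4% and 9.08%), and DESeq2 called 3 higher and 0 lower (3.94% and 4.06%). The median log2 fold changes were 0.00 and 0.02.

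In PI518671 at 30 dpi the medians lay above those of all genes and almost no single gene passed. SCN:SBA against control gave 1 gene higher and 0 lower (0.677% and 0.339% over all genes) and a median log2 fold change of 0.24 against 0.02. It was positive in 114 of the 150 genes, against 51.7% of all genes. SCN against control gave 0 and 0 (0.306% and 0.051%) with a median of 0.21, and SBA against control 0 and 0 (0.00696% and 0%) with a median of 0.26. SCN:SBA against the other 3 groups gave 0 and 0 (0% and 0%), a median of 0.11, and 8 higher and 2 lower at an unadjusted p under 0.05 (6.25% and 4.24%). The 3 comparisons with control share the control libraries, so their medians are not separate evidence. At an unadjusted p under 0.05, SCN:SBA gave 14 higher and 3 lower (10.5% and 7.59% over all genes), SCN 13 and 2 (8.55% and 5.89%), and SBA 11 and 6 (9.92% and 5.69%). DESeq2 called 4 and 0 (4.49% and 3.16%), 2 and 1 (2.94% and 1.78%), and 2 and 2 (2% and 1.21%) in the same order, and 0 and 0 for SCN:SBA against the other 3 groups (0.378% and 0.295%). Without replicate 3 of SBA the counts were 5 and 0, 3 and 1, and 3 and 6 against control, and 9 and 0 against the other 3 groups. The 1 call was lost without any 1 of the SCN, SCN:SBA or control libraries, while replicate 2 of SBA left out gave 4 higher for SCN:SBA against control and 1 higher and 1 lower for SCN against control.

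Read with the score's own measure, 7 of the 150 genes (4.67%) had all 3 SCN:SBA libraries above the other 9 in MN1806CN at 5 dpi, and 2 (1.33%) below, against 3.71% and 1.13% of tested genes. In PI518671 at 30 dpi 4 genes (2.67%) lay above and 0 below, against 0.661% and 0.276%. Leaving out 1 library gave 7 to 10 above and 2 to 9 below in the first, and 4 to 8 above and 0 to 3 below in the second. The 9 below arose without replicate 1 of SCN:SBA, and 4 without replicate 2 of the control. In PI518671 the 8 above and 3 below arose without replicate 3 of SCN:SBA, 7 above without replicate 3 of SCN and 1 below without replicate 3 of SBA.

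Glyma.13g327700, the gene of rank 1, was one of the 2 called higher in MN1806CN with both pests at 5 dpi. Its SCN:SBA libraries of 5 dpi had 1.61, 1.35 and 0.297 CPM, the SBA libraries 0.297, 0.0815 and 0.241 CPM, the controls 0.0675, 0.0494 and 0.179 CPM, and the SCN libraries 0.0456, 0 and 0 CPM. Replicate 3 of SCN:SBA overlapped with SBA and the other 2 replicates did not. The log2 fold change was 3.49 (SE 0.62, edgeR adjusted p = 0.031) against the other 3 groups and 3.11 (SE 0.84, adjusted p = 0.047) against control. The first call was lost in 8 of 12 omissions of 1 library and the second in 11 of 12, with the fold change between 3.11 and 4.10 and between 2.73 and 3.86. DESeq2 made neither call, and the second was also lost without a filter and with the replicate number as a block. In PI518671 at 30 dpi its SCN:SBA libraries had 0.186, 0.102 and 0.300 CPM, within the span of the controls (0.0569 to 0.836 CPM).

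Glyma.17g137400, rank 81, was the single gene called higher in PI518671 with both pests at 30 dpi. It had 11.6, 11.4 and 19.4 CPM there and 0.557, 2.87 and 1.14 CPM in the controls. The groups did not overlap, and the log2 fold change was 3.16 (SE 0.62, edgeR adjusted p = 0.042, lost in 9 of 12 omissions of 1 library). The call was also lost with the replicate number as a block and with library totals in place of TMM factors, at 3.16 and 3.18. The single pests in PI518671 at 30 dpi gave 9.12, 12.7 and 8.52 CPM under SCN and 15.0, 3.09 and 18.6 CPM under SBA. In MN1806CN at 30 dpi its SCN libraries (11.4 to 13.7 CPM) also lay above its controls (4.20 and 8.11 CPM), while its SBA libraries (2.64, 2.55 and 0.990 CPM) lay below them. At 5 dpi it ranged from 3.31 to 130 CPM, with SCN:SBA replicates at 130, 11.8 and 4.98 CPM.

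Glyma.02g146200, rank 68, was called lower in MN1806CN with both pests at 5 dpi, opposite to its place at 30 dpi. The SCN:SBA libraries of 5 dpi had 16.8, 16.9 and 15.2 CPM, below all 9 others, which ran from 22.1 to 34.7 CPM. The log2 fold change was -0.91 against the other 3 groups (SE 0.20, edgeR adjusted p = 0.049, lost in 10 of 12 omissions of 1 library) and -1.01 against control (SE 0.23, adjusted p = 0.030, lost in 6 of 12). At 30 dpi it had 19.7, 22.0 and 24.3 CPM in the libraries labelled SCN:SBA and 7.23 to 10.3 CPM in the other 8. In PI518671 it was at 9.70 to 30.6 CPM at 5 dpi and at 4.47 to 10.9 CPM at 30 dpi, a log2 fold change of 1.28 (SE 0.18) for 5 against 30 dpi.

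Glyma.01g188700, rank 76, was also called lower at 5 dpi. Its SCN:SBA libraries in MN1806CN at 5 dpi had 17.9, 16.0 and 15.1 CPM, below the controls at 24.7, 21.9 and 24.8 CPM, for a log2 fold change of -0.80 (SE 0.17, edgeR adjusted p = 0.027, lost in 3 of 12 omissions of 1 library). At 30 dpi the libraries labelled SCN:SBA had 23.6, 19.6 and 20.7 CPM and the other 8 had 7.56 to 10.4 CPM. Its log2 fold change for 5 against 30 dpi in PI518671 was 0.80 (SE 0.14). With library totals in place of TMM factors, the lower calls of both genes at 5 dpi were lost, at -0.74 and -0.75 for rank 68 and -0.54 for rank 76.

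**Figure D4:**
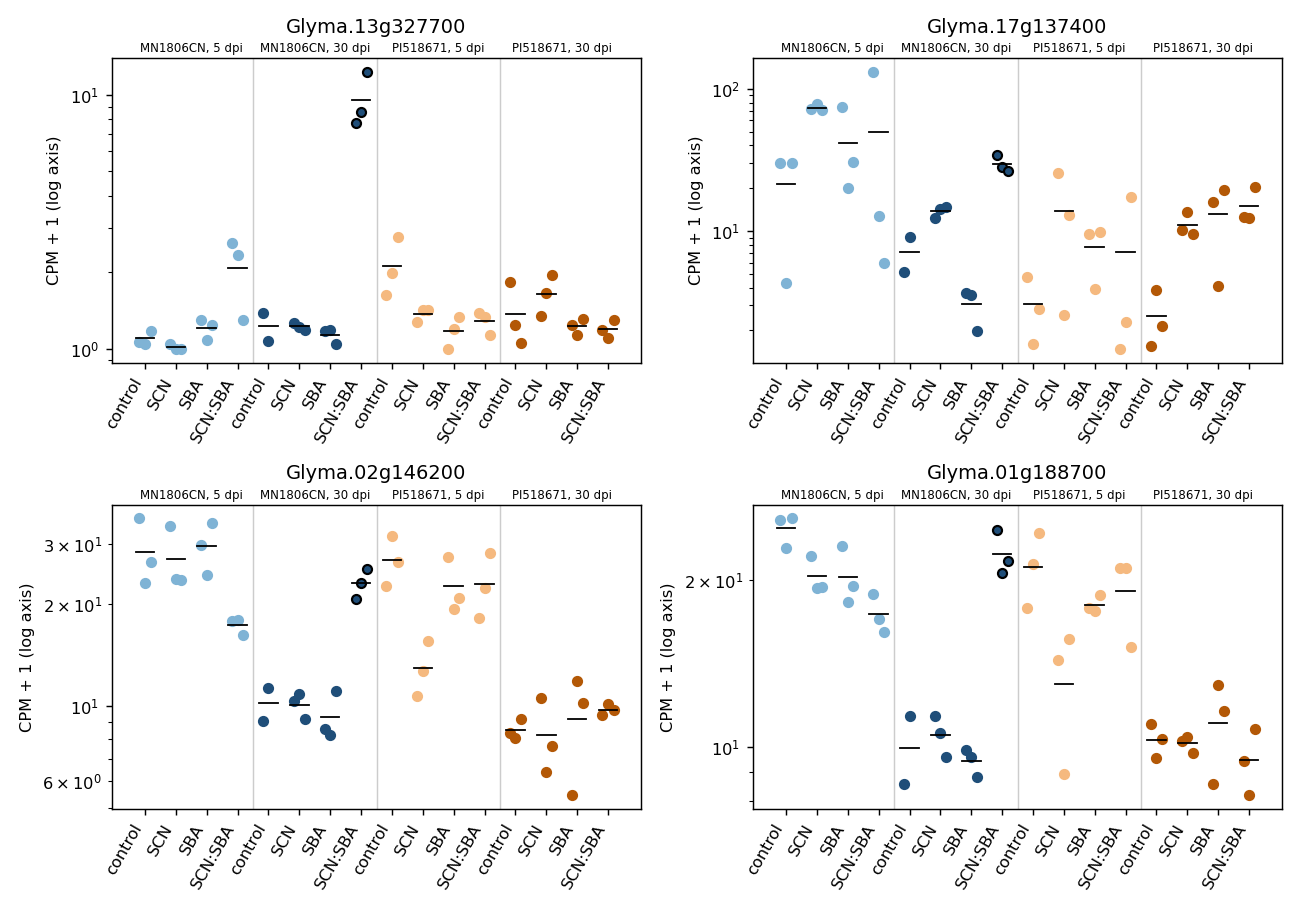
CPM + 1 on a log axis of the 4 named genes in each of the 47 libraries (points), by treatment along the horizontal axis and by cultivar and time point across each panel, with lines at group means. Black-edged points are the 3 libraries whose levels chose the genes. Glyma.13g327700 stands at 6.74 to 11.3 CPM in those 3, and the SCN:SBA points of MN1806CN at 5 dpi are the lowest of that set of 12 for Glyma.02g146200.

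The remaining called genes in MN1806CN at 5 dpi were ranks 10, 34 and 89, higher with both pests than in the control by 0.98, 1.41 and 1.34 on the log2 scale, and rank 89 by 1.06 against the other 3 groups.

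Members varied together beyond the libraries that chose them. Within treatment groups, the mean pairwise Pearson correlation of the 150 genes was 0.293 over the 12 MN1806CN libraries of 5 dpi and 0.239 over the 12 PI518671 libraries of 30 dpi, against 0.020 and 0.034 for all tested genes. These are descriptions, since the genes share each library's depth and composition.

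By the chromosome number in their IDs, the 150 genes were spread over all 20 chromosomes, with the most on chromosome 6 (14 genes, 9.33%, against 5.82% of all genes) and 3 on unplaced sequence. In 3 pairs the members carried consecutive IDs: ranks 48 and 57, 17 and 22, and 20 and 87. Across the 47 libraries these pairs correlated at 0.84, 0.74 and 0.75. Ranks 48 and 57 were also among the more abundant, at 83.8 to 105 CPM and 97.9 to 146 CPM in the 3 libraries. Whether reads were split between gene copies was looked for in the fractional counts. A fractional part was present in 54.4% of the values of the 150 genes and 56.7% of those of all tested genes, and 16.7% and 17.1% of the genes had whole values throughout. How far a level includes reads shared with a copy was not tested.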

How the data were processed

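Single-end reads of whole roots were quality-checked with FastQC 0.11.3 and MultiQC 1.3, trimmed with Btrim64 and quantified by the authors with Salmon 0.9.1 on the primary transcripts of Wm82.a2.v1. What was deposited is each gene's estimated count in each library, neither normalized nor filtered, and it was rounded for the tests. The libraries of a group are biological replicates according to the study's methods, and groups came from the sample labels.

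A library's total bears on counting error only, and the study's methods name no molecular identifiers. The spread between plants was estimated in the fits from the replicate libraries. Genes reaching 0.5 CPM in at least 1 library were tested with edgeR 4.0.16 (R 4.3.3; TMM, quasi-likelihood F test, two-sided, Benjamini-Hochberg over all 43122 genes, adjusted p under 0.05), with all 12 libraries of a cultivar and time point in the fit, or all 24 of PI518671 for the time points. A standard error is the absolute log2 fold change divided by the root of its F value. The code was tested on simulated data. Levels and figures used Python 3.11.15, numpy 2.4.6, pandas 2.3.3 and matplotlib 3.10.9.

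The members, lists and tests were chosen with earlier results of these data known. The rule for naming took the highest scores, the highest levels, the largest called changes in each direction and neighbouring members; it yielded more genes than the 4 IDs that could be printed without an annotation, and the others are given by rank. Gene lists by function, tissue markers and promoter motifs were not analysed here, because the IDs could not be matched to names or sequences, so the root label was not checked against markers. Alternatives were RLE size factors, library totals, no filter, DESeq2 1.42.0, the replicate number as a block, each library left out, TMM-scaled CPM, log2(CPM + 4) and no condition on PI518671. The library totals, the PI518671 time comparison and its alternatives were added after the data had been seen.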

Additional observations from a re-analysis of the deposited data

How the results depend on the processing

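The choice of genes depended on the scale: 91 of the 150 were taken with CPM on TMM-scaled totals, 94 with log2(CPM + 4), 16 with the condition on PI518671 left out, and 84 to 147 with 1 library left out (84 without replicate 3 and 85 without replicate 1 of MN1806CN SCN:SBA 30 dpi). RLE size factors and no filter on low counts kept every count of genes within 1.5 times. With library totals, the counts higher and lower in MN1806CN at 5 dpi were 5 and 0 against the other 3 groups and 7 and 0 against control, and the count higher in PI518671 SCN:SBA against control at 30 dpi was 0. DESeq2 gave 5 and 6, 9 and 11, 1 and 3 for SCN, and 3 higher for SBA in MN1806CN at 5 dpi. In PI518671 at 30 dpi it gave 4 higher for SCN:SBA, 2 and 1 for SCN, and 2 and 2 for SBA, each against control.

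The study's replicates came from separate blocks, but whether a number names a block is not given in the sources used here. Deviations of same-numbered libraries correlated at -0.17 to 0.45 in MN1806CN at 5 dpi (mean 0.144, against -0.07 for different numbers) and at -0.23 to 0.35 in PI518671 at 30 dpi (mean 0.010 against -0.0046), so not every pair was above 0. The mean correlation was higher with the library's own number in 11 of 12 and 7 of 12 libraries. With the number as a block, the counts were 5 and 6 against the other 3 groups and 4 and 12 against control in MN1806CN, 0 higher for SCN:SBA against control in PI518671, and 121 higher at 5 than at 30 dpi. The causes of these moves were not tested.

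With 1 library left out, the counts in MN1806CN at 5 dpi were 0 to 7 higher and 0 to 5 lower against the other 3 groups, and 0 to 6 and 0 to 13 against control. In PI518671 at 30 dpi they were 0 to 9 higher against the other 3 groups, and against control 0 to 5 higher for SCN:SBA, 0 to 3 and 0 to 1 for SCN, and 0 to 3 and 0 to 6 for SBA. Between time points they were 115 to 133 higher and 0 to 1 lower, the 1 without replicate 3 of SCN:SBA at 5 dpi. The time count was 68 without the controls, 0, 32 and 29 in SCN, SBA and SCN:SBA alone, with 1 lower in SBA alone. Genes without overlap numbered 7 to 10 above and 2 to 9 below in MN1806CN at 5 dpi, 4 to 8 and 0 to 3 in PI518671 at 30 dpi, and 6 to 22 between time points, where TMM-scaled CPM gave 3.

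Depth limits low genes: the smallest library held 8472717 counts, and 9 of the 150 genes had a value of 0 somewhere. Each treatment comparison rested on 3 libraries a group, and time could not be separated from water bath.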
